A study of Mus musculus with 12 samples.

Results

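The genes described here are those of the cytosolic ribosomal proteins, the protein parts of the ribosomes that translate nuclear mRNAs. They were chosen by name alone: a gene symbol made of Rpl or Rps and a number, with an optional short suffix, or the symbols Rplp0, Rplp1, Rplp2 and Rpsa. The rule found 87 of the 55487 genes in the table, 54 of the large and 33 of the small subunit. Of these, 76 are canonical genes (46 large, 30 small) and 11 are paralogues or retrocopies with a name of their own. The cells were 3T3-L1, mouse fibroblasts that become fat cells when treated with adipogenic hormones. One line expressed a scrambled short hairpin RNA as control (shScram) and the other a short hairpin RNA (shFTO) that lowers Fto, the gene of an RNA demethylase. Total RNA was sequenced from growth-arrested preadipocytes (Pre), at mitotic clonal expansion (MCE), when the induced cells divide again, and after differentiation to adipocyte-like cells (Diff). Each of the 6 groups had 2 libraries. The labels name neither separate cultures nor clones, so p-values measure only the spread between these libraries, which may be technical.

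Each ribosome holds 1 copy of nearly every ribosomal protein, and growing cells keep the mRNAs of these proteins among their most abundant. Many of these mRNAs begin with a run of pyrimidines, the TOP motif, through which mTORC1 and LARP1 set their translation and stability. In cells that leave quiescence, ribosome production rises ahead of division, while adipocyte differentiation follows the exit from the cell cycle. Most ribosomal protein genes also have processed pseudogenes, reverse-transcribed copies elsewhere in the genome, and short reads from the mRNA can align to these as well.

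Values are TPM, in which reads are corrected for gene length and every library has the same total. Fto was between 52.7 and 73.5 TPM in the 6 shScram libraries and between 5.51 and 7.47 TPM in the 6 shFTO libraries (mean log2 difference -3.09, p = 0.00926 by a two-sided exact permutation of the lines within each stage, the smallest p that the 216 arrangements can give). Replicate 1 of shScram at Diff carries shScram in its title but the Fto knockdown in its treatment field, and was kept with the group of its title. Replicate 1 of the shScram preadipocytes stood apart. The SD of the log2 difference between replicates over the 82 ribosomal protein genes tested was 0.938 in that group and between 0.113 and 0.247 in the other groups. There, 22 of these genes differed by more than 1 on the log2 scale, against 0 in every other group. Rps14 was at 219 TPM in replicate 1 and 2540 TPM in replicate 2, Rplp1 at 824 and 4336 TPM, and Rps12 at 7413 and 2879 TPM. Mitochondrially encoded transcripts made up 14.5% of replicate 1 and 7.34% of replicate 2, and between 4.58% and 9.17% of the other libraries. Since all libraries share a single estimate of the spread, this library also widens the error of comparisons it is not part of. Counts of called genes are therefore given with all 12 libraries and then without it. In comparisons that do not involve shScram preadipocytes, leaving out its partner instead narrowed the error alike. With either library left out, that group adds nothing to the estimate of the spread. The like counts under either choice are therefore no second check. Counts with any other library left out are given without the share of all genes called. That share moves with the fit, so such counts do not compare the members with other genes.

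Of the 87 genes, 82 reached 1 TPM in at least 2 libraries and were tested among 15968 genes with limma on log2(TPM + 1), two-sided, with Benjamini-Hochberg adjustment over all genes. Of the others, Rpl39l and Rps12l1 were listed at 0 in every library. Rpl10l, a paralogue known from testis, reached at most 0.109 TPM, Rps4l 0.173 TPM and Rpl3l, a paralogue known from muscle, 0.222 TPM. All 76 canonical genes were tested. Their median over the 12 libraries was 1647 TPM, and 67 of them lay at 953 TPM or more. Rplp1 (5935 TPM) and Rplp0 (5048 TPM), parts of the stalk that recruits elongation factors, and Rps12 (4191 TPM) had the highest means. Rpl32l (0.6 TPM), Rpl6l (12.02 TPM) and Rpl29 (40.1 TPM) had the lowest means among the genes tested. Other genes overlapped an exon of 40 members, and whether the counting used strand is not given in the sources used here.

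The sequence around the annotated start was searched for runs of pyrimidines, without asking whether a run begins at the start as in a TOP mRNA. RefSeq promoters on GRCm38.p6 were given for 64 of the 87 genes, in 76 entries. A run of at least 6 C or T letters within 10 bases of the start was present in 44.7% of these entries and in 20.2% of all 32851 promoters. On either strand of the 300 bases, CTTCCG, the core recognised by ETS factors, was present in 59.2% of the entries and 16.9% of all promoters. CTTTCC was present in 50% and 26.6%, and AAGATGG, a YY1-type motif, in 15.8% and 6.3%. The motifs overlap the pyrimidine run in part, and a match is no evidence of use. The lines below give 10 bases before and 20 bases after the start, 5′ to 3′, with the longest run of C or T within 10 bases of the start in capitals. In Rps13, Rpl36a, Rpl36al, Rps27l and Rpl22 that run lies wholly before the start. Rpl36a and Rpl36al also hold runs of the same length after the start, left in lower case. Rps13, Rplp2 and Rpl38 are shown because they had extreme differences between the lines, and the others because they are the paralogue pairs compared further on.
Rps13 (chr7:116334171-116334200, minus strand): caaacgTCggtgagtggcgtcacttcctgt
Rplp2 (chr7:141447641-141447670, plus strand): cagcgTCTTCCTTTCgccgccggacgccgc
Rpl38 (chr11:114668570-114668599, plus strand): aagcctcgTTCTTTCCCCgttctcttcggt
Rpl36a (chrX:134585644-134585673, plus strand): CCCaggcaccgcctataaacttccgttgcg
Rpl36al (chr12:69184048-69184077, minus strand): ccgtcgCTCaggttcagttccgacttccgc
Rps27 (chr3:90213629-90213658, minus strand): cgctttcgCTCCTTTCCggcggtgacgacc
Rps27l (chr9:66946076-66946105, plus strand): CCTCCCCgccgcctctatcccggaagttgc
Rpl22 (chr4:152324426-152324455, plus strand): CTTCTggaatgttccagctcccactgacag
Rpl22l1 (chr3:28805498-28805527, plus strand): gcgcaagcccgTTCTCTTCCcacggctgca
Rps27l and Rpl22 each have another annotated start, with runs of 4 and 3 letters. Within 10 bases of the start, the longest run was 10 letters in Rplp2 and Rpl38, 9 in Rps27 and Rpl22l1, and 2 in Rps13. Runs are cut at the edge of this window. In Rpl22l1 a further C follows, and the runs of Rps27l, Rpl22 and Rpl36a may begin before the printed bases.

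In summed level, the 87 genes took 11.5% and 12.7% of the TPM of the shScram preadipocyte libraries, 17.6% and 18.5% at MCE, and 14.1% and 13.01% at Diff. In shFTO cells the shares were 13.7% and 12.2% in preadipocytes, 14.6% and 15.1% at MCE, and 14.9% and 14.0% at Diff. Both shScram libraries at MCE lay above all 10 others. The group means, in falling order, were 18.1% ± 0.629 (SD, n = 2) for shScram at MCE, 14.9% ± 0.339 for shFTO at MCE, 14.4% ± 0.622 for shFTO at Diff, 13.6% ± 0.778 for shScram at Diff, 12.9% ± 1.08 for shFTO preadipocytes and 12.1% ± 0.841 for shScram preadipocytes. From shFTO at MCE downwards, the libraries of each group overlapped those of the next. The subunits kept their proportion: the large-subunit sum was between 1.55 and 1.69 times the small-subunit sum in every library except the shScram preadipocyte library that stood apart, where it was 1.47 times. Without the mitochondrially encoded transcripts the shares at MCE were 18.8% and 19.6% in shScram and 15.4% and 15.9% in shFTO. In bulk samples, fewer cells of a type and less RNA per cell cannot be told apart.

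**Figure D1:**
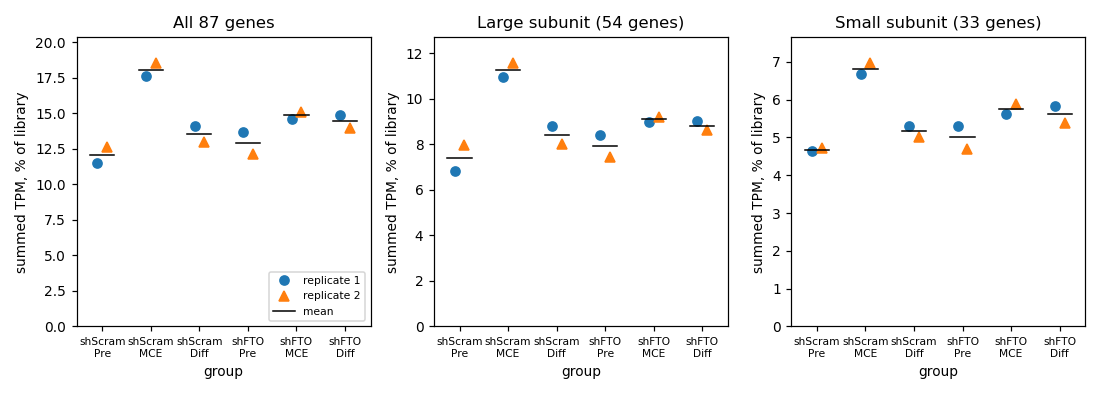
Summed TPM of the ribosomal protein genes as a percent of each library, for all 87 genes and for each subunit. Points are single libraries (circle replicate 1, triangle replicate 2), bars are the means of 2 libraries, and the shScram libraries at MCE, at 17.6% and 18.5%, lie above all others.

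The first step, from growth arrest to clonal expansion, was a broad rise of the ribosomal protein mRNAs in shScram cells. Of 82 genes tested, 44 rose and 1 fell, where 12.2% of all 15968 genes were called as higher and 26.9% as lower, and 23.2% of the 1576 genes with a mean of at least 100 TPM were called as higher. Without replicate 1 of the preadipocytes, 57 rose and 1 fell, against 12.9% higher and 35.3% lower over all genes. The median difference was 0.64 on the log2(TPM + 1) scale and 0.50 without that library, while the medians of all genes tested were -0.17 and -0.24. Genes of at least 100 TPM were also called as higher more often than all genes in the fit without that library. With quantile normalization the median was 0.30 with 56 of 82 members above 0, and with median-ratio scaling 0.85, with all genes at -0.03 and 0.00. Both MCE libraries lay above both preadipocyte libraries for 60 members and below for 1, where 21.8% and 40.7% of all genes did. With only replicate 2 of shScram at MCE the count was 21 and with only replicate 1 it was 6. The rise covered 26 of 46 canonical large-subunit genes (median 0.66) and 17 of 30 canonical small-subunit genes (median 0.68).

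Rplp1, an acidic stalk protein (chromosome 9 of GRCm38, 61913284 to 61914542), went from 824 and 4336 TPM in shScram preadipocytes to 7170 and 8344 TPM at MCE. Every MCE value lay above every preadipocyte value, and the difference was 2.03 ± 0.61 (SE, limma adjusted p = 0.0271), or 0.83 without the deviating library (limma adjusted p = 0.00879). Rplp0, the stalk base, went from 2239 and 4561 TPM to 7208 and 7081 TPM, a difference of 1.16 ± 0.28 (limma adjusted p = 0.0121). Rps19, the small-subunit protein most often mutated in Diamond-Blackfan anaemia, went from 161 and 864 TPM to 1379 and 1550 TPM. Its difference fell from 1.97 to 0.76 without the deviating library and was called in both fits (limma adjusted p = 0.030 and 0.00723). Rps14, a small-subunit protein with the highest difference of all members at 2.40, missed the threshold with all libraries (limma adjusted p = 0.0511) and was called at 0.64 without the deviating library (limma adjusted p = 0.00179). At the other end stood Rps27l, a p53-induced paralogue of Rps27, which fell from 571 and 444 TPM to 310 and 330 TPM. The fall was the only one called among the members (log2 difference -0.65 ± 0.14, limma adjusted p = 0.0068). Rpl36al and Rps26, the next lowest with all libraries at -0.57 and -0.42, were near 0 or above it without the deviating library, at -0.04 and 0.11.

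From MCE to Diff the shScram cells lost this rise again. Of the 82 genes, 0 rose and 7 fell, where 20.0% of all genes were called as higher and 5.22% as lower, 8.63% among the genes of at least 100 TPM. Without the deviating preadipocyte library, which is not part of the comparison and enters only through the spread, 0 rose and 57 fell, against 38.3% higher and 13.7% lower. Leaving out replicate 1 or 2 gave 2 and 0 for shScram at MCE, 3 and 0 for shScram at Diff, 3 and 2 for shFTO preadipocytes, and 1 for each other shFTO library. Of the genes of at least 100 TPM, 26.8% were called as higher and 36.5% as lower without the deviating preadipocyte library. The median of the members was -0.41 and that of all genes 0.23. Both Diff libraries lay below both MCE libraries for 71 of 82 members, a pattern that 21.4% of all genes showed, and for 0 members above, where 53.7% of all genes did so. The genes that fell with all libraries were Rpl11, Rpl22l1, Rpl27a, Rpl31, Rpl35a, Rps20 and Rps23. Rpl22l1, a paralogue of Rpl22, was at 321 and 305 TPM at MCE and at 229 and 132 TPM at Diff (log2 difference -0.84 ± 0.22, limma adjusted p = 0.023). Rpl35a was at 209 and 413 TPM and then at 172 and 130 TPM (-0.97 ± 0.30, limma adjusted p = 0.0434). Rps29 (-0.90) and Rps18 (-1.15) fell only without the deviating library, with limma adjusted p of 0.0214 and 0.000296 there and 0.0903 and 0.0798 with it. Rps15a (0.10), Rpl7 (0.01) and Rps24 (-0.01) stood highest, and none of them passed the test in either fit.

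In shFTO cells fewer members were called in the same steps, and the test of the difference between the lines, given further on, called 0 members with all libraries. From preadipocytes to MCE 2 genes rose and 0 fell, where 8.80% of all genes were called as higher and 19.9% as lower. Without the deviating library 21 rose and 2 fell, against 15.8% and 35.3%. Without an shFTO library of these stages 0 or 1 gene was called. Of the genes of at least 100 TPM, 26.3% were called as higher and 32.6% as lower without the deviating library. The median of the members was 0.17 against -0.18 over all genes. It was 0.01 against 0.01 with quantile normalization, with 41 of 82 members above 0, and 0.39 against -0.01 with median-ratio scaling. Both MCE libraries lay above both preadipocyte libraries for 52 members and below for 9, where 25.5% and 51.4% of all genes did. The genes called with all libraries were Rpl22l1, which went from 182 and 197 TPM to 335 TPM in both MCE libraries (0.82 ± 0.22, limma adjusted p = 0.0222), and Rpl37a, from 815 and 633 TPM to 1266 and 1249 TPM (0.81 ± 0.20, limma adjusted p = 0.0168). Rpl9, a large-subunit protein, followed at 0.51 and was called only without the deviating library (limma adjusted p = 0.00148). Rpl34 (-0.58), Rps27l (-0.41) and Rpl22 (-0.34) stood lowest, and none of these passed with all libraries. With near-identical copies added, as described further on, Rpl34 was at 3378 and 2595 TPM in preadipocytes and at 3060 and 3113 TPM at MCE. In that form the libraries of these stages overlapped.

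From MCE to Diff in shFTO cells, limma called 0 of 82 genes in either direction, with 1 at an unadjusted p under 0.05, where 20.2% of all genes were called as higher and 6.48% as lower. Without the deviating library 4 rose and 3 fell, against 34.6% and 16.4%. The median was -0.01 against 0.17 over all genes. Both Diff libraries lay above both MCE libraries for 19 members and below for 26, where 51.6% and 27.2% of all genes did. Rpl7l1, a paralogue of Rpl7 that takes part in ribosome assembly, was at 89.5 and 95.1 TPM at MCE and at 59.2 and 57.7 TPM at Diff, the lowest difference of the members at -0.65 ± 0.22 (limma adjusted p = 0.0607, and 2.8e-05 without the deviating library). Rps18 stood highest at 0.58 (limma adjusted p = 0.36), ahead of Rpl30 and Rpl34, both at 0.31. With near-identical copies added, as described further on, Rps18 was at 4272 and 1565 TPM at MCE and 4699 and 1528 TPM at Diff. Rpl34 in that form was at 3060 and 3113 TPM at MCE and 3042 and 2961 TPM at Diff. Rpl22l1 (-0.35) and Rplp0 (-0.34) followed Rpl7l1 at the lower end.

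Gene by gene, both MCE libraries of shScram lay above its other 4 libraries for 56 of 82 members and below them for 0, where 11.0% and 30.5% of all genes did so. In shFTO, both MCE libraries lay above the other 4 for 20 members and below for 5, where 15.1% and 36.7% of all genes did so. The map of levels relative to each gene's own mean shows this as a warm pair of columns for shScram at MCE, and it shows the deviating preadipocyte library as a column of its own.

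**Figure D2:**
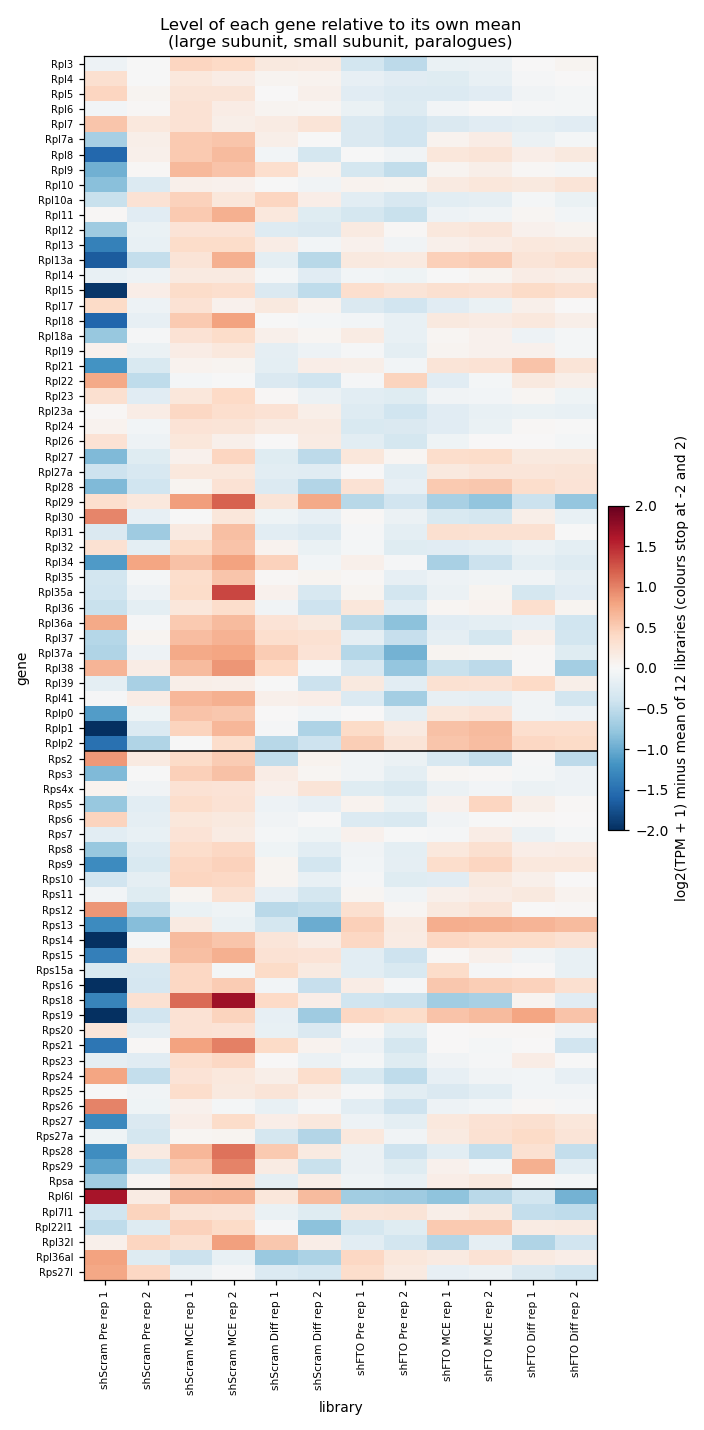
Levels of the genes tested in each of the 12 libraries, as log2(TPM + 1) minus the gene's mean over the libraries (red above, blue below, colours ending at -2 and 2). Lines part the large subunit, the small subunit and the paralogues, and replicate 1 of shScram preadipocytes departs from its partner in both directions.

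Between the lines at MCE, more members were lower than higher in shFTO. There 17 of 82 genes were lower in shFTO and 0 higher, where 7.26% of all genes were called as lower and 10.5% as higher, and 9.64% of the genes of at least 100 TPM as lower. Without the deviating preadipocyte library 43 were lower and 4 higher, against 15.8% and 25.2%. With a single library of either line at MCE the count was 4 (without replicate 1 of shScram) or 1 (without replicate 2 of shScram or either shFTO library). Leaving out an shScram library at Diff gave 11 and an shFTO library at Diff 9. Of the genes of at least 100 TPM, 24.8% were called as lower and 36.5% as higher without the deviating preadipocyte library. The median difference of the members was -0.29, and 0.05 over all genes. The 17 genes comprised 13 of 46 canonical large-subunit genes (median -0.37), 3 of 30 canonical small-subunit genes (median -0.22) and the retrocopy Rpl32l. Both shFTO libraries lay below both shScram libraries for 60 members and above them for 11, patterns that 30.3% and 41.1% of all genes showed.

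Rpl11 and Rpl5, which with 5S rRNA form the particle that can bind MDM2, were both lower in shFTO at MCE. Rpl11 was at 2232 and 2540 TPM in shScram and at 1444 and 1479 TPM in shFTO (-0.70 ± 0.18, limma adjusted p = 0.0244). Rpl5 was at 1237 and 1232 TPM and at 847 and 883 TPM (-0.51 ± 0.14, limma adjusted p = 0.0377). Rpl41, the shortest of these proteins, was at 6008 and 6168 TPM and at 3367 and 3350 TPM (-0.86 ± 0.18, limma adjusted p = 0.0125). Rpl38, a large-subunit protein known from a mouse skeletal mutant, was at 1827 and 2177 TPM and at 860 and 816 TPM (-1.25 ± 0.29, limma adjusted p = 0.0177). In each of these genes the lines were apart by more than the spread between replicates. The lowest differences were those of Rps18, at 375 and 556 TPM in shScram against 106 and 108 TPM in shFTO (-2.08 ± 0.43, limma adjusted p = 0.0101), Rpl29, at 64.7 and 83.0 TPM and 22.5 and 20.4 TPM (-1.73 ± 0.20, limma adjusted p = 0.000596), and Rpl6l (-1.36, limma adjusted p = 0.0519). Highest stood Rps13 (0.70), Rpl36al (0.53) and Rplp2 (0.41), which were called only without the deviating library (limma adjusted p = 0.0122, 0.00191 and 0.02).

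At Diff the members lay to both sides, and with all libraries in shares below those of all genes. With all libraries 5 were higher in shFTO and 2 lower, where 11.9% and 9.31% of all genes were, and without the deviating library 26 were higher and 15 lower, where 25.3% and 20.4% were. Of the genes of at least 100 TPM, 37.8% were called as higher and 23.6% as lower without the deviating library. The median of the members was 0.01, against 0.03 over all genes, and its sign changed with the scaling between libraries. The libraries did not overlap for 34 members higher and 31 lower in shFTO, where 39.0% and 34.0% of all genes did so. Without replicate 1 of shScram at Diff, the library with contradicting labels, 4 were called, without replicate 2 there were 2, and without replicate 1 or 2 of shFTO 2 and 1. The higher genes were Rpl27a, Rpl28, Rplp2, Rps13 and Rps27a. Rps13, a small-subunit protein (chromosome 7, 116331505 to 116334195), was at 835 and 536 TPM in shScram and at 1705 and 1651 TPM in shFTO (1.33 ± 0.23, limma adjusted p = 0.00419). The small nucleolar RNA Snord14a overlaps one of its annotated exons on the same strand. Rplp2, a further acidic stalk protein, was at 710 and 785 TPM and at 1403 and 1366 TPM (0.89 ± 0.26, limma adjusted p = 0.0412). Rps27a, which encodes ubiquitin fused to a small-subunit protein, was at 1749 and 1484 TPM and at 2902 and 2658 TPM (0.79 ± 0.17, limma adjusted p = 0.0105). Rps19 had the second highest difference at 1.11 and was called only without the deviating library (limma adjusted p = 0.000224). The lower genes were Rpl29, at 43.2 and 61.4 TPM in shScram against 26.5 and 20.6 TPM in shFTO (-1.11 ± 0.20, limma adjusted p = 0.00497), and Rpl32l, which stayed under 2 TPM. Rpl6l (-1.09) and Rpl38 (-0.51) stood next, with limma adjusted p of 0.0977 and 0.253.

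In preadipocytes the comparison rests on which shScram library is used. With both, 7 members were higher in shFTO and 7 lower, where 15.9% and 12.3% of all genes were. Without replicate 1 the counts were 10 and 15, against 16.1% and 12.9%, without replicate 2 they summed to 63, and without replicate 1 or 2 of shFTO to 1 and 2. In the fit without replicate 1 of shScram, genes of at least 100 TPM were called in larger shares than the members, both as higher and as lower. The libraries did not overlap for 26 members higher and 22 lower, where 33.6% and 26.9% of all genes did so. Rps14 (2.1), Rps19 (1.98) and Rplp1 (1.75) stood highest with both and were at 0.34, 0.77 and 0.56 without replicate 1. Of these, Rps19 was called in both fits (limma adjusted p = 0.0399 and 0.0117). Rpl36a, a large-subunit protein, was at 2575 and 1503 TPM in shScram and at 1037 and 868 TPM in shFTO (-1.05 ± 0.23, limma adjusted p = 0.0139, and -0.66 without replicate 1, limma adjusted p = 0.00421). Rpl6l (-1.61) and Rpl38 (-0.96) were likewise lower with both (limma adjusted p = 0.0225 and 0.0394), and Rpl38 was not called without replicate 1 (limma adjusted p = 0.0954).

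**Figure D3:**
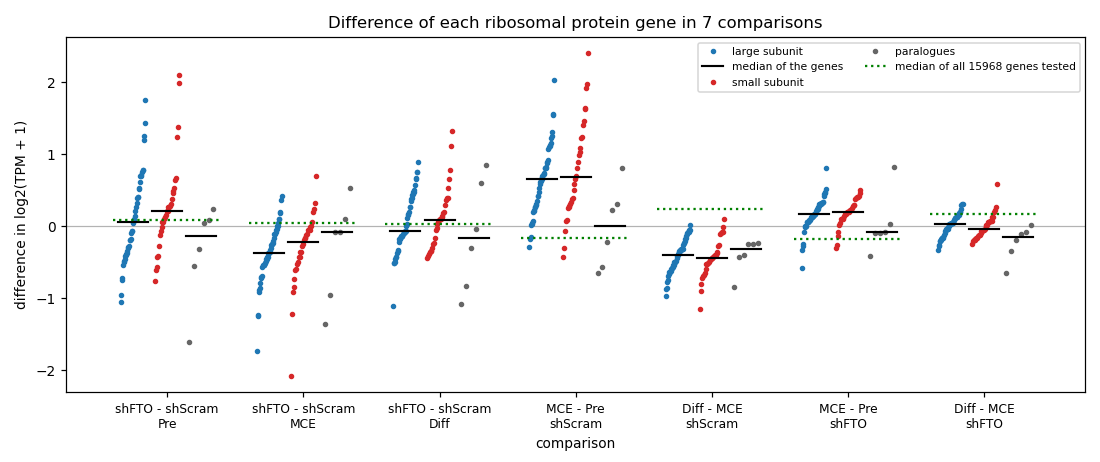
Difference in log2(TPM + 1) of each of the 82 genes in 7 comparisons, sorted within the large subunit, the small subunit and the paralogues. Short black bars are medians of the genes, dotted lines the median of all 15968 genes tested, and the genes lie mostly above that line in the step from Pre to MCE and below it in the step from MCE to Diff in shScram.

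The order of the genes by line difference was alike at MCE and at Diff. Across the 82 genes, which are not independent replicates, the line differences at MCE and at Diff had a Spearman's rho of 0.836 and a Pearson's r of 0.812, and across all 15968 genes these were 0.595 and 0.667. The stages share no library, but they share the pair of cell lines. At all 3 stages both shFTO libraries lay above both shScram libraries for 7 members, where 16.6% of all genes did so, and below them for 14, where 10.1% did. The 7 are Rpl10, Rpl21, Rpl28, Rplp2, Rps13, Rps19 and Rps27a. Among the 14 are Rpl3, Rpl4, Rpl5, Rpl6, Rpl7, Rpl29, Rpl36a, Rpl41 and the retrocopies Rpl6l and Rpl32l. With the TPM of near-identical copies added, as described further on, 5 of the 7 and 12 of the 14 kept the pattern, and Rpl21, Rps27a, Rpl3 and Rpl29 did not. Transcript length, GC content and the share of a transcript's sequence found in no other gene followed the line difference at MCE weakly, with a Spearman's rho of 0.242, -0.126 and 0.171. For GC content, rho was 0.354 with the step from Pre to MCE and -0.356 with that from MCE to Diff in shScram. In shFTO these were -0.09 and 0.064. With the difference between replicates it was -0.358 in shScram preadipocytes, -0.382 in shScram at MCE and 0.056 to 0.156 in the other groups.

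**Figure D4:**
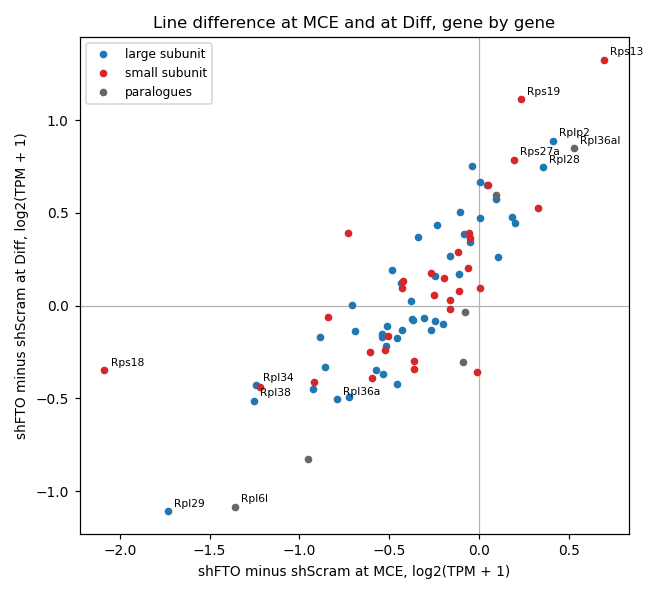
Difference between shFTO and shScram in log2(TPM + 1) at MCE (horizontal) and at Diff (vertical) for the 82 genes, by subunit. The genes follow a band with a Spearman's rho of 0.836 that crosses the vertical axis above 0, with Rps13 at its upper end and Rpl29 at its lower end.

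Whether the line difference itself changed between stages was tested as an interaction. From Pre to MCE it moved by a median of -0.39 and from MCE to Diff by 0.39, against -0.03 and -0.05 over all genes, and 13 and 80 of 82 members had a positive value. With all libraries limma called 0 members in both, where 2.52% of all genes were called as higher and 2.59% as lower in the first and 1.47% and 1.01% in the second, with 14 and 9 members at an unadjusted p under 0.05. Without the deviating library 7 members moved down from Pre to MCE, where 5.94% of all genes did, and 0 up, where 8.17% did. From MCE to Diff 21 moved up, where 8.16% did, and 0 down, where 8.94% did. Rps18 (1.74), Rpl15 (0.80) and Rpl18 (0.67) led the latter by p. With near-identical copies added, the shFTO replicates of Rps18 disagreed at both stages (4272 and 1565 TPM at MCE, 4699 and 1528 TPM at Diff). Of the genes of at least 100 TPM, 14.6% moved up and 12.4% down from MCE to Diff without the deviating library. From Pre to MCE without the deviating library, genes of at least 100 TPM moved down in a larger share than the members did. Leaving out replicate 2 of the shScram preadipocytes instead gave members called in both directions from Pre to MCE. For the step from MCE to Diff that choice is no second check, since the group then adds nothing to the spread under either choice.

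Genes with and without a pyrimidine run near the start were compared by their medians, with no test made. The median line difference at MCE was -0.25 in the 32 tested genes with such a run and -0.31 in the 29 without. At Diff it was 0.07 and -0.07. The step from Pre to MCE in shScram had medians of 0.68 and 0.65, and that from MCE to Diff -0.48 and -0.37.

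Near-identical copies change what a level stands for. A copy was defined as another gene of which at least 50% of the 40-base stretches occur in the coding transcripts of a member. There were 227 copies of 64 members, of which 217 are annotated as pseudogenes. For 7 members the copies held more TPM than the gene, and Rps18, Rpl29, Rpl34, Rpl35a, Rps2 and Rpl21 are the canonical genes among them. Rps18 averaged 201 TPM and its 3 copies 4261 TPM, Rpl29 40.1 and 2151 TPM, and Rpl34 55.5 and 2973 TPM. With the copies added, a setting chosen after the data were seen, Rpl29 at MCE was at 2679 and 2458 TPM in shScram and at 2368 and 2398 TPM in shFTO, and its difference was -0.11 (limma adjusted p = 0.909). At Diff its sign turned to 0.17 (limma adjusted p = 0.822). Rps18 with its copies was at 7172 and 7734 TPM in shScram and at 4272 and 1565 TPM in shFTO, so that the shFTO replicates themselves disagreed (-1.53, limma adjusted p = 0.108). Rpl21, whose copies held 77.6% of the sum, was higher in shFTO at all stages on its own, and with its copies it was at 1790 and 1820 TPM in shScram at MCE against 1675 and 1721 TPM in shFTO. Rpl35a with its copies was at 3058 and 3747 TPM and at 2037 and 1968 TPM, and was called lower only in this form (-0.76, limma adjusted p = 0.0392). Over the 210 copies tested, the line difference at MCE had a median of -0.68, with 69 lower and 5 higher, and 122 lower and 11 higher without the deviating library. Over all genes 7.26% were called as lower and 10.5% as higher there, and 15.8% and 25.2% without that library. The copies share sequence with the members.

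Among the paralogue pairs, 4 had both genes above the filter, and each ratio was tested between the lines by an exact permutation within stages, adjusted over the 4 pairs. Rpl36al, a paralogue of Rpl36a, took a larger part of the pair in shFTO. Its share of the summed TPM of the pair was 19.5% and 16.6% in shScram preadipocytes and 31.5% and 32.5% in shFTO. At MCE it was 10.7% and 12% against 23.7% and 24.8%, and at Diff 10.4% and 11.6% against 22.9% and 25.2%. The lines did not overlap at any stage, and the log2 ratio was higher in shFTO by 1.26 on average (two-sided exact permutation p = 0.00926, adjusted 0.0185). By stage the difference was 1.097, 1.32 and 1.35. A further gene, Gm49383, overlaps Rpl36al on the same strand.

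Rpl7l1 against Rpl7 was higher in shFTO by 0.48 (two-sided exact permutation p = 0.00926, adjusted 0.0185), with a difference of 0.95 in preadipocytes, 0.37 at MCE and 0.12 at Diff. It was 0.284 without replicate 1 of the shScram preadipocytes (adjusted p = 0.0185), and it missed the threshold when an shFTO preadipocyte library was left out. Rps27l against Rps27 fell by 0.39 in shFTO relative to shScram (two-sided exact permutation p = 0.0185, adjusted 0.0247). That difference lay in the preadipocytes, at -0.96, where the shScram shares were 43.2% and 22.9%, while at MCE and Diff it was -0.08 and -0.13. Without replicate 1 of the shScram preadipocytes the mean was -0.167 (adjusted p = 0.0247). Rpl22l1 against Rpl22 gave 0.10 (two-sided exact permutation p = 0.731, adjusted 0.731), with shares of 40.3% and 38.7% in shScram and 44.6% and 41.3% in shFTO at MCE. In both lines the share of Rps27l was lower at MCE than in preadipocytes and the share of Rpl22l1 higher, in every pair of libraries.

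**Figure D5:**
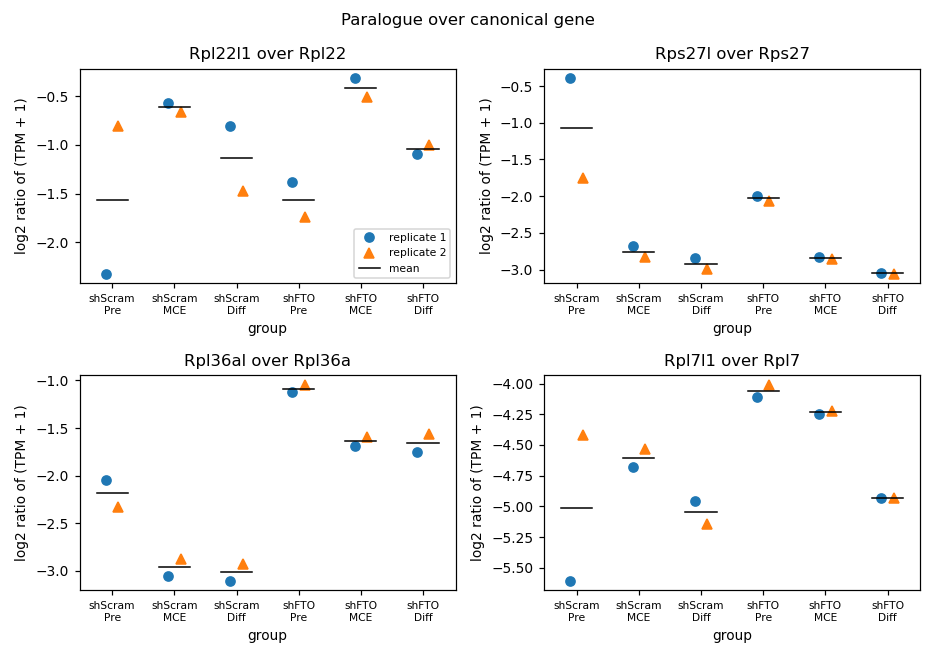
Log2 ratio of (TPM + 1) of 4 paralogues over their canonical genes in the 12 libraries (circle replicate 1, triangle replicate 2, bar the mean of 2). For Rpl36al over Rpl36a the shFTO libraries lie above the shScram libraries at each stage.

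Genes that work with the ribosome were summarised from fixed lists. With all libraries, 12.2% of all genes tested were called as higher and 26.9% as lower from Pre to MCE in shScram. Between the lines at MCE, 7.26% were lower in shFTO and 10.5% higher, and 15.8% and 25.2% without the deviating library. Among ribosomal protein genes whose symbols fall outside the naming rule, Fau and Rack1 rose from Pre to MCE in shScram by 1.25 and 0.64 and Rps3a1 did not pass (0.07, limma adjusted p = 0.764) but did without the deviating library (0.31, limma adjusted p = 0.0197). Of 16 translation factors with TOP mRNAs, 5 rose and 2 fell in that step (median 0.24), and 8 rose and 2 fell without the deviating library. Among the risers were Eef1d (0.74) and Eef2 (1.06), both of the elongation cycle, and the genes that fell were Npm1 (-0.95) and Naca (-0.60). At MCE, 2 of the 16 were lower in shFTO and 0 higher (median -0.24), the initiation factors Eif4b (-0.77) and Eif3h (-0.40). Without the deviating library 7 were lower and 0 higher.

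Genes of ribosome assembly gave other counts. Of 30 assembly genes, 2 rose and 13 fell from Pre to MCE in shScram (median -0.11), and without the deviating preadipocyte library 2 rose and 22 fell (median -0.43). At MCE 2 were lower in shFTO and 0 higher (median -0.04), and without that library 6 were lower and 3 higher. Dkc1, the pseudouridine synthase of H/ACA particles, was lower in shFTO at Pre (-1.35), MCE (-0.99) and Diff (-0.75), with limma adjusted p of 0.00037, 0.00124 and 0.00437. Of 16 mTORC1 and TOP regulators, 14 were tested, with 1 higher and 1 lower in shFTO at MCE, the MYC partner Max (0.56) and the translational repressor Eif4ebp2 (-0.95), and 4 higher and 3 lower without the deviating library. The 78 mitochondrial ribosomal protein genes had a median line difference of -0.03 at MCE, with 1 higher and 3 lower, and 12 each way without that library. Of 319 pseudogenes named after ribosomal protein genes, 124 were tested, with a median of -0.63, 3 higher and 34 lower, and 9 and 66 without that library.

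Markers of cell state differed along these steps. The 5 mitotic markers summed to 219 to 250 TPM in shScram preadipocytes, 656 to 702 at MCE and 130 to 140 at Diff, and in shFTO to 173 to 187, 525 to 549 and 218 to 237 TPM. At Diff, 4 of 5 were higher in shFTO. The 9 adipocyte markers summed to 1521 to 1536 TPM in shScram at Diff and to 397 to 436 TPM in shFTO, with 7 of the 8 tested lower and Lep at or near 0 in all libraries. The 8 fibroblast markers were all above 0 in every library, at 3404 to 8013 TPM in sum. The 5 macrophage markers summed to at most 4.06 TPM, with Adgre1 at 0 throughout. The part of cell division and of adipocyte content in the ribosomal protein levels was not tested.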

How the data were processed

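Total RNA of 12 libraries, 2 in each of 6 groups assigned by title, was analysed. The authors trimmed reads of short RNA fragments with Trim Galore 0.6.5, aligned them with HISAT2 2.1.0 to GRCm38 and deposited a TPM per gene from StringTie 2.1.4 with Ensembl release 102 (versions from the submitters' processing notes). TPM keeps no depth, so sequencing depth is unknown, and 20853 to 24018 genes were above 0 per library.

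From the deposited TPM, log2(TPM + 1) was tested with limma 3.58.1 in R 4.3.3 (1 mean for each group, empirical Bayes moderation with an intensity trend, 6 residual degrees of freedom) for 15968 genes with TPM of 1 or more in 2 or more libraries. The threshold was an adjusted p of 0.05. This scale understates changes of low genes. Ratios and Fto were tested by exact permutation. Python 3.11.15, numpy 2.4.6, pandas 2.3.3 and scipy 1.17.1 were used. Coordinates came from GENCODE M21 (99.5% of gene identifiers found).

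Members, lists and tests were chosen with earlier results of these data known. Named genes are both genes of each paralogue pair, Rpl36, the 3 highest and 3 lowest members by level and by difference in each of 7 comparisons (mean TPM of 5 or more), and the lists of RPs outside the rule, TOP factors, assembly genes, regulators and markers. Other genes were picked after their values were seen, as examples of a role or of a small count. Rpl36 differed by -0.23 at MCE (limma adjusted p = 0.5) and 0.43 at Diff (limma adjusted p = 0.167). The limma fit was tested on simulated data. Alternatives concerned pseudocount, filters, scaling, GC content, fitted libraries, trend, the replicate number and each library left out. Single values of some genes are not reported here, and the map of levels leaves them out.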

Additional observations from a re-analysis of the deposited data

How the results depend on the processing

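Both the number of the 82 genes called and their median difference varied with the fit. Except for the fit without the deviating library, counts under alternative fits are given without the share of all genes called. That share moves with the fit as well, so these counts do not compare the members with other genes. Without a filter on low values the counts were 4 between the lines at Pre, 3 at MCE and 4 at Diff, and 24 and 0 for the steps from Pre to MCE and from MCE to Diff in shScram, and 1 for the first step in shFTO. With only the libraries of a comparison in the fit, they were 0, 44 and 28 between the lines, 0 and 39 for the steps in shScram, 30 and 25 for those in shFTO, and 19 for the interaction from MCE to Diff. With GC correction they were 28 at MCE and 11 at Diff between the lines, 43 from MCE to Diff in shScram, 21 and 10 for the steps in shFTO and 1 for each interaction. Quantile normalization gave 26 and 1 for the steps in shScram and 1 from MCE to Diff in shFTO. Median-ratio scaling gave 36 from MCE to Diff in shScram and 9 and 1 for the steps in shFTO. Rescaling without ribosomal protein and mitochondrial genes gave 14 and 1 from MCE to Diff in shScram and shFTO. The cause was not tested.

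Leaving out each library, and also replicate 1 of shScram at Pre and at Diff together (added after the data were seen), gave 1 to 63 called genes between the lines at Pre, 1 to 48 at MCE and 1 to 41 at Diff, 6 to 65 and 0 to 57 for the steps in shScram, 0 to 27 and 0 to 10 for those in shFTO, and 0 to 53 and 0 to 29 for the interactions. The lowest count of the first step in shScram was without replicate 2 of shScram at MCE, and that of the line difference at MCE was without this library or either shFTO library at MCE. Over all these alternatives the median line difference at MCE stayed between -0.38 and -0.20, while those at Pre and Diff and the step from MCE to Diff in shFTO changed sign (-0.10 to 0.20, -0.04 to 0.06 and -0.23 to 0.05). The medians of the first step ranged from 0.30 to 0.85 in shScram and from 0.01 to 0.39 in shFTO.

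The labels do not say whether same-numbered replicates pair, and the main fit does not pair them. Their deviations correlated between -0.29 and 0.172, which cannot settle the question. The replicate block gave 3 genes from MCE to Diff in shScram and otherwise counts within 1.5 times those without it. With GC correction the difference in the paralogue ratio Rps27l/Rps27 was -0.253, no longer past the threshold (exact permutation adjusted p = 0.0988). With each replicate left out in turn it was -0.618 to -0.167 for Rps27l and 0.284 to 0.677 for Rpl7l1, at both ends by leaving out an shScram preadipocyte library. It missed the threshold without either shFTO preadipocyte library in both pairs, and for Rps27l also without replicate 2 of shFTO at MCE or either shFTO library at Diff. For Rpl22l1 it was -0.154 to 0.351, and its sign reversed without replicate 1 of shScram at Pre (-0.154) or replicate 2 at Diff (-0.012), while Rpl36al passed throughout. With copies summed, Rpl29 at Diff reversed to 0.17. For single named genes, 817 values kept their direction and side of the threshold, 91 newly passed it, 81 no longer did, 18 moved and 1 reversed. TPM gives no counts, so the depth behind a low value is unknown.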
